A study of Mus musculus with 3 samples.

Results

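The expression of 39 genes of the immediate early response and of the feedback that ends it was examined in macrophages of a mouse model of metastatic breast cancer. The genes were taken from a fixed list of names, by role, which was chosen with earlier results of these data known. All 39 of them were found among the 18193 genes that the arrays measured with a probe set of a single symbol. The study used 4T1, a mammary carcinoma line that was inoculated into syngeneic BALB/c mice and forms metastases in the lung. The data were 3 arrays, with 1 for each group. mTAMs were macrophages isolated from the metastatic lung and pTAMs were macrophages isolated from the matched primary breast tumor, both of mice that had carried 4T1 tumors for 5 weeks. BMDM, the control, were macrophages differentiated in culture from the bone marrow of healthy mice. The mTAMs and pTAMs were sorted as CD11b+F4/80+. The sources used here do not say whether Ly6C was also a gate for the arrays or how many mice gave RNA to each array.

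Immediate early genes are transcribed within minutes of a signal, without new protein synthesis, because the factors that switch them on already sit at their promoters. Growth factors, microbial ligands and stress reach them mainly through the mitogen-activated protein kinases (MAPKs), and their mRNAs are short-lived. Many of their products are transcription factors, and others end the response: dual-specificity phosphatases remove phosphate from MAPKs, and proteins of the ZFP36 family bind AU-rich elements in cytokine mRNAs and direct their decay. In macrophages these genes are known to respond to Toll-like receptor ligands and to adhesion, and in many tissues they are also known to respond to enzymatic dissociation.

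Before the sort, tumor and lung tissue was minced, incubated at body temperature with the enzymes collagenase and hyaluronidase and separated on Percoll, whereas BMDM came from culture. Tissue of origin and preparation therefore cannot be told apart in a comparison of TAMs with BMDM. The comparison of mTAMs with pTAMs set 2 digested tissues against each other. It also set lung against breast tumor, without an array of healthy lung, so organ and metastasis cannot be told apart in it. With 1 array per group there was no replicate error and no test, and differences are descriptions of these arrays. Values are log2 signals after normalization by the RMA method, a difference of 1 is 2-fold, and genes that differed by 2-fold or more were called. The only spread available was between probe sets of the same gene, with an SD of the log2 difference of 0.52 for mTAMs against BMDM, 0.43 for pTAMs against BMDM and 0.28 for mTAMs against pTAMs, and it leaves out mouse, sort and array. Signals at or below 5.3 were treated as background, and a fold against such a signal is a lower bound.

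Most of the 39 genes were higher in TAMs of both sites than in BMDM. In mTAMs 31 genes were at least 2-fold higher than in BMDM, against 11.5% of all genes compared, and 1 gene, *Dusp4*, was lower, against 14.4% (12.9% and 10.5% of all genes under cyclic loess normalization). In pTAMs 32 genes were higher than in BMDM, against 8.78% of all genes, and *Dusp4* alone was lower, against 7.5%. The median log2 difference from BMDM of the 39 genes was 2.63 in mTAMs (2.54 with background values raised to 5.3) and 1.98 in pTAMs, while over all genes it was -0.11 in mTAMs and -0.05 in pTAMs. Both comparisons used the same BMDM array. Between the sites, mTAMs exceeded pTAMs at least 2-fold for 10 genes, against 5.36% of all genes, and 2 were lower, *Dusp4* and *Dusp6*, against 2.58%. By any amount, 32 of the 39 genes were higher in mTAMs than in pTAMs, against 33.8% of all genes.

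Many of these differences were large. At least 8-fold higher than BMDM were 18 of the 39 genes in mTAMs (46.2%, against 2.84% of all genes) and 11 in pTAMs (28.2%, against 2.09% of all genes). At least 16-fold higher were 10 genes in mTAMs (25.6%, against 1.65% of all genes) and 5 in pTAMs (12.8%, against 1.07% of all genes). These counts used the values as measured, and with background values raised to 5.3 *Fosb* fell below 16-fold at both sites and *Egr3* below 8-fold in pTAMs. The order mTAMs above pTAMs above BMDM was found for 30 of the 39 genes (76.9%), and in 15.0% of the 12025 genes above background on at least 1 array. All 39 genes were above background on at least 1 array and 36 on every array. *Fosb*, *Egr3* and *Nr4a3* were at background in BMDM alone.

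**Figure D1:**
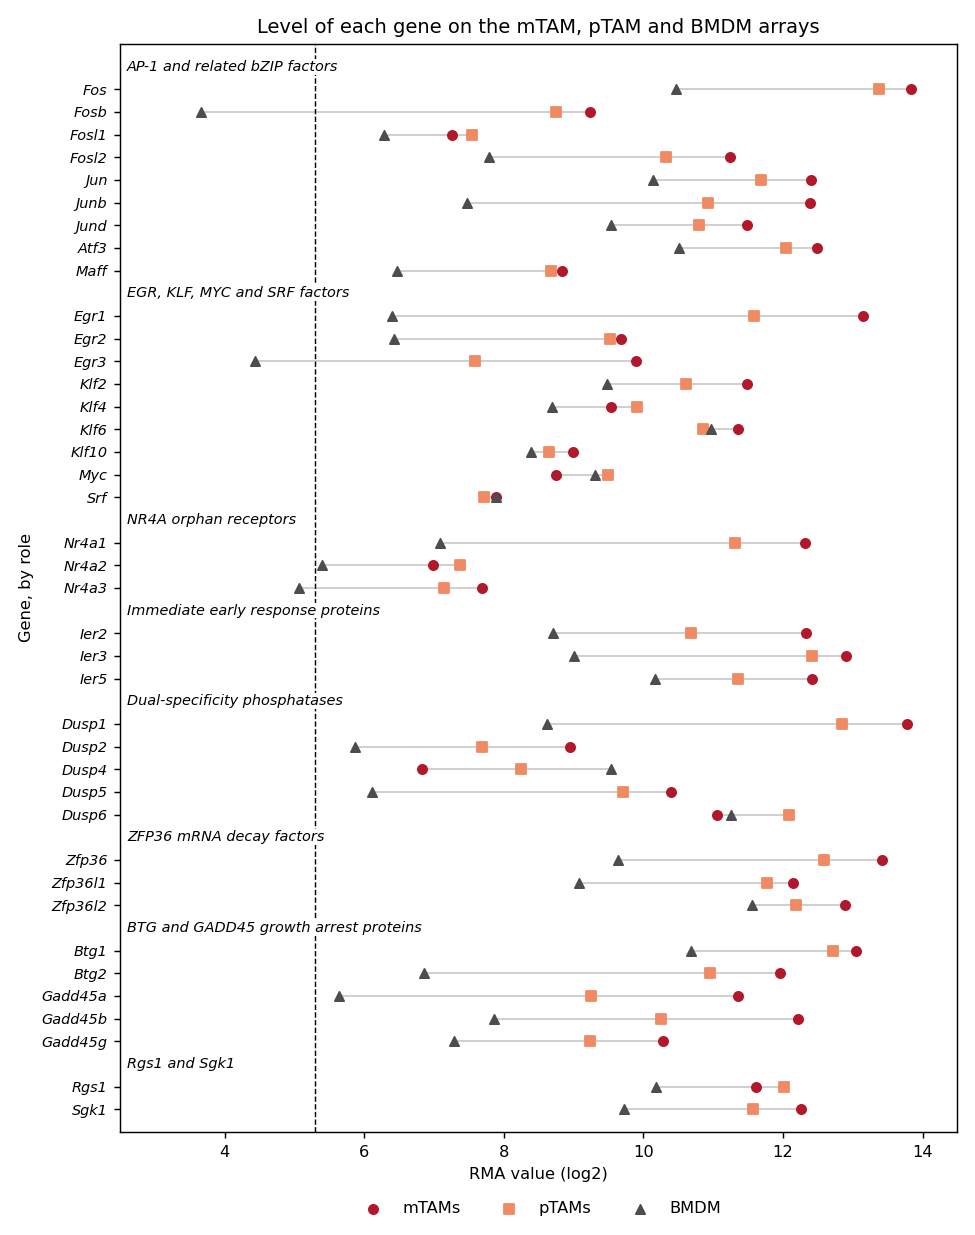
RMA log2 signal of each of the 39 genes on the mTAM (circle), pTAM (square) and BMDM (triangle) array, grouped by role, with 1 array per group and the background level of 5.3 as a dashed line. The BMDM value lay lowest for most genes, and *Dusp4* was the gene with BMDM highest and mTAMs lowest.

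Promoter windows of these genes were searched for sequences through which the response is known to work. RefSeq windows of the mouse assembly GRCm38.p6, from 250 bases before to 50 after a start, were matched for 30 of the 39 genes (41 windows). The other genes had no matched window and were not searched, so a gene not named below can lack a sequence or a window. The CArG box, the binding sequence of serum response factor (SRF), was found in 17.1% of these windows against 1.63% of all 32851 windows, at *Egr2*, *Srf*, *Dusp5* and *Zfp36*. Counted per gene, it was 13.3% against 1.81%. The cyclic AMP response element TGACGTCA, bound by CREB, was found in 7.32% against 1.79%, at *Maff*, *Dusp1* and *Btg2*. The 250 bases before the start are shown for 6 genes, all picked from those with a CArG box or TGACGTCA in the window. Their products stand for parts of the response described below, a factor, its regulator, phosphatases, a decay factor and a growth arrest protein. Capitals mark the CArG box in the lines for *Zfp36* (chr7:28379229-28379478, minus strand), *Dusp5* (chr19:53528895-53529144, plus strand), *Egr2* (chr10:67537316-67537565, plus strand) and *Srf* (chr17:46556163-46556412, minus strand), and TGACGTCA in those for *Dusp1* (chr17:26508473-26508722, minus strand) and *Btg2* (chr1:134079156-134079405, minus strand).
Zfp36: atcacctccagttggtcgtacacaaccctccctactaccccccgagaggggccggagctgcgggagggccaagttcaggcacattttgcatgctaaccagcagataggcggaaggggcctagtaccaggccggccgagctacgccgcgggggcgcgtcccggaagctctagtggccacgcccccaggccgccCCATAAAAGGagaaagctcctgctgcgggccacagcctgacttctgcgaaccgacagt
Dusp5: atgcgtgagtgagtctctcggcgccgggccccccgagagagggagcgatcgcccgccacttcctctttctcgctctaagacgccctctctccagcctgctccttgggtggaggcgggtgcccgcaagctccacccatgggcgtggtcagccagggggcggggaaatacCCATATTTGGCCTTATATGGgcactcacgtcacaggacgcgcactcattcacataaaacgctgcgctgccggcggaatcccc
Egr2: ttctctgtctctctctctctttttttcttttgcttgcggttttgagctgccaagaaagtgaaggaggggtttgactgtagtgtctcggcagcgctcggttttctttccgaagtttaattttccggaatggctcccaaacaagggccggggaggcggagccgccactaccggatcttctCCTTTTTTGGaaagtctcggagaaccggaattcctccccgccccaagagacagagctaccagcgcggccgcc
Srf: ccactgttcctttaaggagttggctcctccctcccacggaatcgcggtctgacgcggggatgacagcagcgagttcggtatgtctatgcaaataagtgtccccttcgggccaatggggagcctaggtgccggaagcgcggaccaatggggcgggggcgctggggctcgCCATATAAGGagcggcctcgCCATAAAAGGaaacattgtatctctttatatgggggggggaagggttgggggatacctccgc
Dusp1: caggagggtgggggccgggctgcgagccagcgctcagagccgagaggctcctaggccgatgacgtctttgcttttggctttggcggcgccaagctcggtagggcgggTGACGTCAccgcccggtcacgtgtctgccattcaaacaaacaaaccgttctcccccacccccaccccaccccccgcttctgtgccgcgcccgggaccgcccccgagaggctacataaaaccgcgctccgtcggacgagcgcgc
Btg2: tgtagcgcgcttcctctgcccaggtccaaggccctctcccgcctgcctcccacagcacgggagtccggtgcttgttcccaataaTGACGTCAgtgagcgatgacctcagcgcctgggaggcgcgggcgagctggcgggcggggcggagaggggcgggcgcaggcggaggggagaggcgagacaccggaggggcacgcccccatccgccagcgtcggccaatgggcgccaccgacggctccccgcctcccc
The boxes began 58 bases before the start at *Zfp36*, 82 and 72 bases at *Dusp5*, 72 bases at *Egr2* and 82 and 62 bases at *Srf*. The cyclic AMP response element began 143 bases before the start at *Dusp1* and 166 bases at *Btg2*. Of the genes shown, all but *Srf* were at least 2-fold higher in TAMs of both sites than in BMDM, so a CArG box in the window was found both with and without such a difference. Among all 39 genes, 79.5% were at least 2-fold higher than BMDM in mTAMs and 82.1% in pTAMs. The EGR site GCGNGGGCG lay in 29.3% of the windows against 5.55%. The TATA box letters TATAAA, counted at any position in the window, lay in 24.4% against 13.6%. The AP-1 site TGANTCA lay in 2.44% against 7.81%, and AAAGGTCA, the site of NR4A receptors, was in none of the 41 windows against 1.51%. Both strands were searched, N stands for any base, and matches of different sequences did not overlap in these windows. *Egr2* counts with 4 windows, for starts close to each other, and a match is a description of letters and not of binding.

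AP-1 is the dimeric transcription factor formed by FOS and JUN proteins. All 9 genes of AP-1 and related bZIP factors were higher in pTAMs than in BMDM, and 8 were higher in mTAMs than in BMDM. *Fos* had a signal of 13.84 in mTAMs and 13.38 in pTAMs against 10.46 in BMDM, which is 10.4-fold above BMDM in mTAMs and 7.57-fold above it in pTAMs. *Fosb*, which codes for a close relative of FOS, had 9.24 in mTAMs and 8.74 in pTAMs but 3.66, a background value, in BMDM. It was at least 15.3-fold above BMDM in mTAMs and at least 10.9-fold above it in pTAMs. Among the FOS-like genes, *Fosl2* had 11.24 in mTAMs, 10.32 in pTAMs and 7.79 in BMDM. *Fosl1* had 7.25 in mTAMs, 7.55 in pTAMs and 6.28 in BMDM, and its difference of 0.97 between mTAMs and BMDM fell just short of 2-fold. Of this group, *Fosl1* was the gene with a lower signal in mTAMs than in pTAMs.

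Of the JUN genes, *Junb* differed most. It had 12.39 in mTAMs, 10.93 in pTAMs and 7.47 in BMDM, which is 30.3-fold above BMDM in mTAMs, 11.0-fold above it in pTAMs and 2.75-fold higher in mTAMs than in pTAMs. It was the gene of the AP-1 group that passed 2-fold between the sites. *Jun* had 12.4 in mTAMs, 11.69 in pTAMs and 10.13 in BMDM, but its other probe set had 9.61 in mTAMs, 9.35 in pTAMs and 9.51 in BMDM and did not differ by 2-fold. *Jund*, the JUN gene with the steadiest expression in most cells, had 11.48 in mTAMs, 10.8 in pTAMs and 9.54 in BMDM. With the mean of all probe sets in place of the brightest, *Jund* fell short of 2-fold in both comparisons with BMDM (0.88 for mTAMs and 0.54 for pTAMs), and *Jun* in pTAMs (0.7). The other probe set of *Jund* was at background on all arrays, with 4.06 in mTAMs, 4.06 in pTAMs and 4.25 in BMDM. *Atf3*, which codes for a stress-induced repressor of inflammatory genes, had 12.48 in mTAMs, 12.04 in pTAMs and 10.51 in BMDM. *Maff*, the gene of a small MAF protein without an activation domain, had 8.83 in mTAMs, 8.68 in pTAMs and 6.47 in BMDM. Both were thus above BMDM at both sites, *Maff* by 5.13-fold in mTAMs and 4.63-fold in pTAMs, and *Atf3* by 3.92-fold in mTAMs and 2.89-fold in pTAMs.

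The EGR genes code for zinc finger factors that bind GC-rich sites, and *Egr1* had the largest difference of all 39 genes. It had 13.14 in mTAMs and 11.59 in pTAMs against 6.4 in BMDM, which is 107-fold above BMDM in mTAMs and 36.5-fold above it in pTAMs. It was also 2.93-fold higher in mTAMs than in pTAMs. *Egr2*, whose CArG box is shown above, had 9.68 in mTAMs, 9.52 in pTAMs and 6.42 in BMDM. The sites thus differed by 0.16 for *Egr2*, within the spread between probe sets, and its other probe set gave 3.26 for mTAMs and 2.95 for pTAMs against BMDM. *Egr3* had 9.89 in mTAMs and 7.58 in pTAMs but a background value of 4.44 in BMDM. It was at least 24.1-fold above BMDM in mTAMs and at least 4.86-fold above it in pTAMs, and at 4.96-fold it had the largest difference of the 39 genes between mTAMs and pTAMs. A further probe set of *Egr3* had the same value of 6.13 on every array.

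The remaining factors of this group differed less. *Klf2*, a factor of quiescent and anti-inflammatory states, had 11.49 in mTAMs, 10.61 in pTAMs and 9.48 in BMDM, or 4.03-fold above BMDM in mTAMs and 2.19-fold above it in pTAMs. *Klf4*, a factor of monocyte differentiation, had 9.54 in mTAMs, 9.91 in pTAMs and 8.69 in BMDM, and only pTAMs passed 2-fold. *Klf6*, *Klf10*, *Myc* and *Srf*, each read from its brightest probe set, did not differ by 2-fold in any comparison. *Klf6*, the gene of a tumor suppressor, had 11.35 in mTAMs, 10.85 in pTAMs and 10.97 in BMDM. One of its 4 further probe sets passed 2-fold, with 9.88 in mTAMs against 8.87 in BMDM, a difference of 1.01. *Klf10*, which is induced by TGF-beta, had 8.99 in mTAMs, 8.65 in pTAMs and 8.39 in BMDM. The spread of these signals over the arrays was under 1 log2 unit for each of the 4 genes. *Myc*, the growth factor-induced regulator of cell growth, had 8.74 in mTAMs, 9.49 in pTAMs and 9.3 in BMDM, so the lowest signal was that of mTAMs. *Srf*, whose product binds the CArG box, had 7.88 in mTAMs, 7.71 in pTAMs and 7.88 in BMDM. The factor thus had nearly the same signal on all arrays while *Egr2*, *Dusp5* and *Zfp36*, with a CArG box in their windows, did not.

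**Figure D2:**
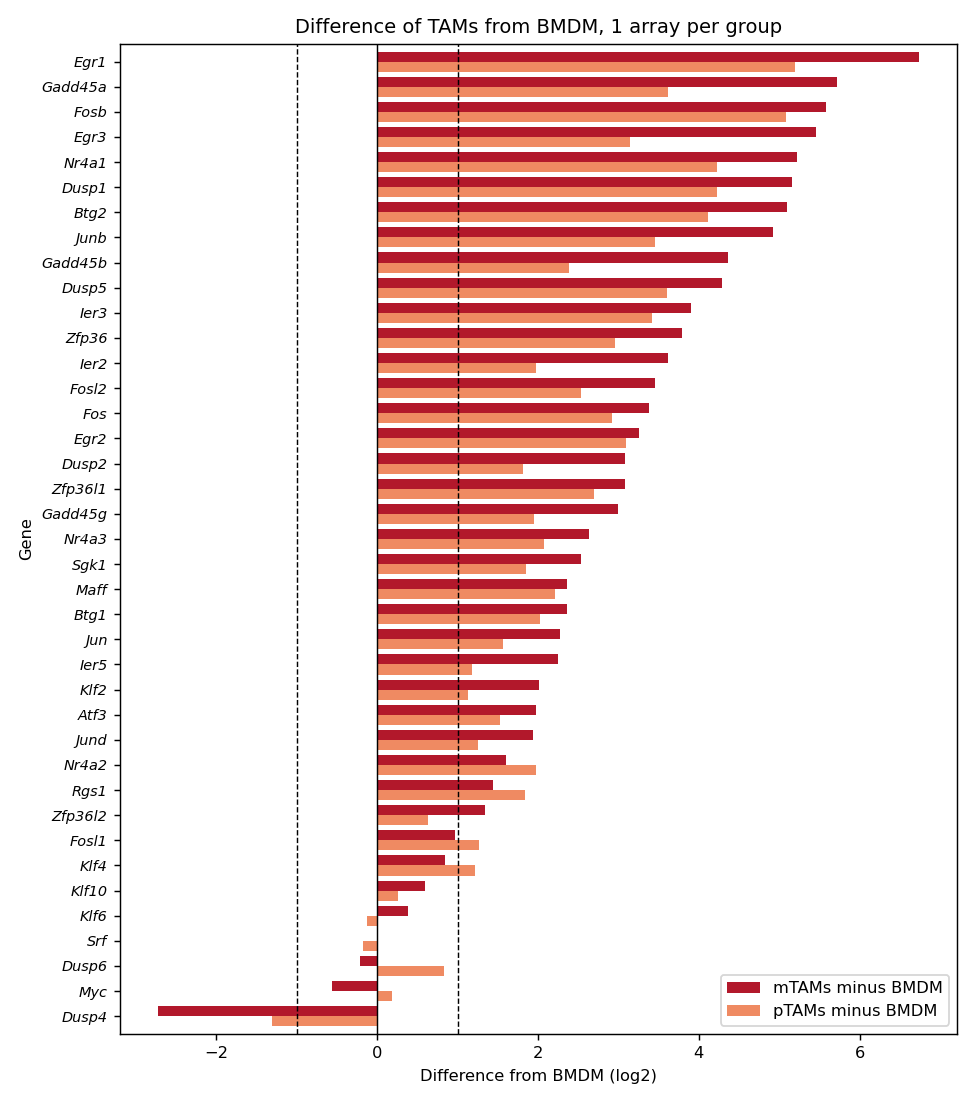
Log2 difference of mTAMs and of pTAMs from BMDM for each of the 39 genes, sorted by the mTAM difference, with dashed lines at 2-fold and the values as measured, also where BMDM was at background. *Egr1* lay at the top with 6.74 for mTAMs and 5.19 for pTAMs, and *Dusp4* at the bottom with -2.72 for mTAMs and -1.3 for pTAMs.

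NR4A receptors are orphan nuclear receptors without a known natural ligand that act through their level of expression. *Nr4a1* had 12.31 in mTAMs, 11.31 in pTAMs and 7.09 in BMDM. It was 37.3-fold above BMDM in mTAMs and 18.6-fold above it in pTAMs, and 2.0-fold higher in mTAMs than in pTAMs, at the very threshold. With quantile normalization repeated, this last difference was 0.95 and no longer a call. *Nr4a3* had 7.69 in mTAMs and 7.14 in pTAMs and was at background, at 5.06, in BMDM. It was at least 5.24-fold above BMDM in mTAMs and at least 3.58-fold above it in pTAMs. Its 2 other probe sets did not differ by 2-fold, and the mean of all of them gave 0.82 for mTAMs and 0.61 for pTAMs. The brighter of these other probe sets had 5.64 in mTAMs, 5.61 in pTAMs and 5.85 in BMDM, close to background. The dimmer was at background on all arrays. *Nr4a2* had 6.99 in mTAMs, 7.37 in pTAMs and 5.39 in BMDM, and its 6 probe sets ranged widely. Against BMDM they gave log2 differences between 0.0 and 2.89 for mTAMs and between 0.0 and 3.58 for pTAMs, and their mean for mTAMs, 0.93, fell short of 2-fold. Among them were a probe set with 6.13 on every array and a probe set at background on every array.

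The 3 immediate early response genes were at least 2-fold higher at both sites than in BMDM, against 11.5% of all genes for mTAMs and 8.78% for pTAMs. *Ier2*, which codes for a nuclear regulator of transcription, had 12.33 in mTAMs, 10.68 in pTAMs and 8.71 in BMDM, which is 12.3-fold above BMDM in mTAMs, 3.92-fold above it in pTAMs and 3.14-fold higher in mTAMs than in pTAMs. *Ier3*, which codes for a protein that limits cell death, had 12.9 in mTAMs, 12.42 in pTAMs and 9.0 in BMDM. The signals of *Ier3* at the sites were 1.39-fold apart, and it was 14.9-fold above BMDM in mTAMs and 10.7-fold above it in pTAMs. *Ier5*, which codes for a regulator of the heat shock factor, had 12.42 in mTAMs, 11.35 in pTAMs and 10.17 in BMDM, and was 2.1-fold higher in mTAMs than in pTAMs. Its other probe sets gave 1.46 and 1.09 for that log2 difference. The mean of its probe sets gave 0.79 for pTAMs against BMDM, which ended the call there.

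The dual-specificity phosphatases did not move together. *Dusp1*, *Dusp2* and *Dusp5* were higher at both sites than in BMDM, *Dusp4* was lower at both, and *Dusp6* differed by less than 2-fold from BMDM at each. *Dusp1*, the inducible nuclear phosphatase of p38 and JNK, had 13.78 in mTAMs and 12.85 in pTAMs against 8.62 in BMDM. It was 35.8-fold above BMDM in mTAMs and 18.8-fold above it in pTAMs, and 1.91-fold higher in mTAMs than in pTAMs. *Dusp5*, a nuclear phosphatase of ERK, had 10.4 in mTAMs and 9.71 in pTAMs against 6.11 in BMDM, or 19.6-fold above BMDM in mTAMs and 12.1-fold above it in pTAMs. *Dusp2*, a nuclear phosphatase of activated immune cells, had 8.95 in mTAMs, 7.69 in pTAMs and 5.87 in BMDM. *Dusp2* was 8.46-fold above BMDM in mTAMs, 3.53-fold above it in pTAMs and 2.39-fold higher in mTAMs than in pTAMs.

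The other phosphatases followed another order. *Dusp4*, a nuclear phosphatase of ERK and JNK, had 6.82 in mTAMs and 8.24 in pTAMs against 9.54 in BMDM. It was 6.59-fold lower in mTAMs and 2.46-fold lower in pTAMs than in BMDM, and 2.68-fold lower in mTAMs than in pTAMs. *Dusp4* was the gene of the list with BMDM highest and mTAMs lowest, an order that 33.2% of all genes above background had. *Dusp6*, the cytoplasmic phosphatase of ERK, had 11.05 in mTAMs, 12.09 in pTAMs and 11.26 in BMDM. It was highest in pTAMs, and 2.06-fold lower in mTAMs than in pTAMs. Under cyclic loess normalization this difference was -0.85 and no longer a call. Each of the 5 phosphatase genes was read from a single probe set.

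The ZFP36 proteins end the response at the level of mRNA. *Zfp36*, the gene of tristetraprolin, had 13.42 in mTAMs, 12.59 in pTAMs and 9.63 in BMDM, which is 13.8-fold above BMDM in mTAMs and 7.78-fold above it in pTAMs. *Zfp36l1* had 12.15 in mTAMs, 11.77 in pTAMs and 9.07 in BMDM, or 8.46-fold above BMDM in mTAMs and 6.5-fold above it in pTAMs, and both of its probe sets passed 2-fold in each comparison with BMDM. *Zfp36l2* had 12.89 in mTAMs, 12.18 in pTAMs and 11.55 in BMDM. Only mTAMs passed 2-fold for *Zfp36l2*, with a difference of 1.34 against 0.63 for pTAMs. Read from these probe sets, none of the 3 genes differed by 2-fold between mTAMs and pTAMs, with log2 differences between 0.38 and 0.83. A second probe set of *Zfp36l2* had 8.51 in mTAMs, 7.29 in pTAMs and 6.42 in BMDM, and its difference between the sites was 1.22.

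BTG proteins restrain proliferation and GADD45 proteins respond to stress and activate the p38 and JNK kinases. All 5 genes of these families were at least 2-fold higher at both sites than in BMDM, against 11.5% of all genes for mTAMs and 8.78% for pTAMs. *Gadd45a* had 11.35 in mTAMs and 9.25 in pTAMs against 5.64 in BMDM, which is 52.3-fold above BMDM in mTAMs, 12.2-fold above it in pTAMs and 4.29-fold higher in mTAMs than in pTAMs. *Gadd45b* had 12.22 in mTAMs, 10.25 in pTAMs and 7.86 in BMDM. It was 20.5-fold above BMDM in mTAMs, 5.24-fold above it in pTAMs and 3.92-fold higher in mTAMs than in pTAMs. Its second probe set had 11.67 in mTAMs, 9.45 in pTAMs and 7.28 in BMDM, and the third differed by less than 2-fold in each comparison. *Gadd45g* had 10.28 in mTAMs, 9.24 in pTAMs and 7.29 in BMDM, and at 2.06-fold it also passed the threshold between the sites. The 3 GADD45 genes were thus among the 10 that were higher in mTAMs than in pTAMs. The BTG genes were not, but for both of them this depended on the probe set. *Btg2* had 11.95 in mTAMs and 10.96 in pTAMs against 6.85 in BMDM, or 34.3-fold above BMDM in mTAMs and 17.3-fold above it in pTAMs, and was 1.99-fold higher in mTAMs than in pTAMs. The second probe set of *Btg2* had 12.29 in mTAMs, 10.52 in pTAMs and 6.38 in BMDM, so the mean of both gave 1.38 between the sites and a call. *Btg1* had 13.04 in mTAMs, 12.71 in pTAMs and 10.68 in BMDM, 5.13-fold above BMDM in mTAMs and 4.08-fold above it in pTAMs. Its difference between the sites was 0.33, but a dimmer probe set had 8.89 in mTAMs, 7.7 in pTAMs and 5.71 in BMDM. That probe set, which was read when probe sets with names that mark them as shared were left out, gave 1.19 between the sites and a call.

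The last genes of the list act in signaling rather than in transcription. *Rgs1*, which codes for a brake on chemokine receptor signaling through G proteins, had 11.62 in mTAMs, 12.02 in pTAMs and 10.18 in BMDM. *Sgk1*, which codes for a kinase induced by serum and glucocorticoids, had 12.26 in mTAMs, 11.57 in pTAMs and 9.72 in BMDM. *Rgs1* was 2.71-fold above BMDM in mTAMs and 3.58-fold above it in pTAMs. *Sgk1* was 5.82-fold above BMDM in mTAMs and 3.61-fold above it in pTAMs, and neither gene differed by 2-fold between the sites. *Rgs1* was with *Fosl1*, *Klf4*, *Myc*, *Nr4a2* and *Dusp6* among the 6 genes whose signal was highest in pTAMs (15.4%, against 18.3% of all genes).

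**Figure D3:**
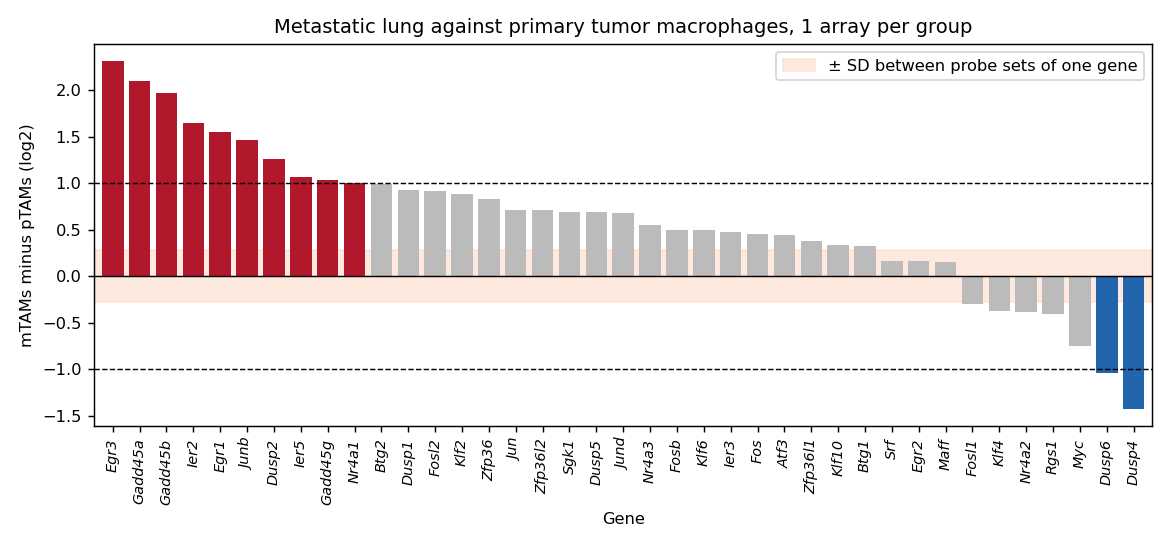
Log2 difference of mTAMs minus pTAMs for each of the 39 genes (red, at least 2-fold higher in mTAMs; blue, at least 2-fold lower; gray, neither), with a shaded band of 1 SD between probe sets of a gene. The bars run from 2.31 for *Egr3* to -1.42 for *Dusp4*, and *Btg2*, at 0.99, lies just under the threshold.

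The 10 genes that were higher in mTAMs than in pTAMs came from several roles. They were *Junb*, *Egr1*, *Egr3*, *Nr4a1*, *Ier2*, *Ier5*, *Dusp2*, *Gadd45a*, *Gadd45b* and *Gadd45g*. The median log2 difference of the 39 genes between the sites was 0.68, and that of all genes was -0.06. Several differences lay close to the threshold on either side: *Nr4a1*, *Gadd45g* and *Ier5* between 1.0 and 1.07 inside it, and *Btg2*, *Dusp1* and *Fosl2* between 0.92 and 0.99 outside it. At a 3-fold threshold, which 2.49% of all genes passed as higher in mTAMs, 4 of the 39 genes remained, *Egr3*, *Ier2*, *Gadd45a* and *Gadd45b*.

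Probe sets of the same gene did not always give the same difference. The list was read from 68 probe sets, with a single one for 22 genes and several for 17. Of 19 further probe sets of genes called against BMDM and above background, 10 passed 2-fold in the same direction, in mTAMs and likewise in pTAMs. For the genes called between mTAMs and pTAMs it was 3 of 5. Between mTAMs and BMDM, probe sets of the same gene differed by more than 2 log2 units at *Egr3*, *Gadd45b*, *Nr4a2*, *Nr4a3*, *Jun* and *Jund*. At *Jund* the other probe set was at background on all arrays.

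**Figure D4:**
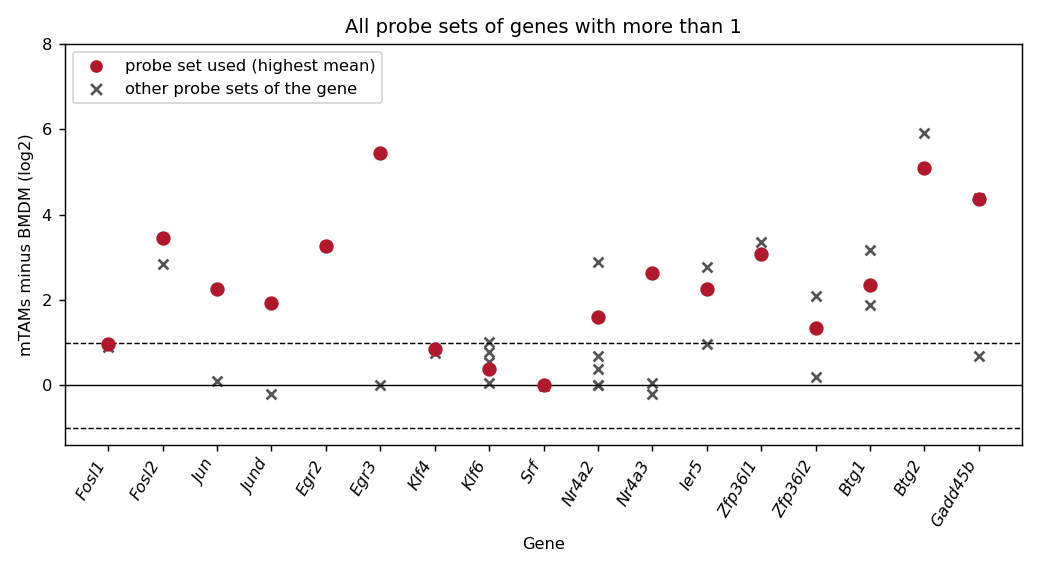
Log2 difference of mTAMs minus BMDM on every probe set of the 17 genes with more than 1 probe set, with the probe set used as a filled circle and the others as crosses. *Egr2* gave 3.26 on both of its probe sets, and *Egr3* gave 5.45 and 0.0.

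Related genes outside the list were read from lists by function, which were also chosen with earlier results of these data known. Of 23 other immediate early genes compared, 17 were above BMDM in mTAMs (73.9%, against 11.5% of all genes). In pTAMs 16 were above BMDM (69.6%, against 8.78% of all genes), and none of these genes was lower at either site. Their median log2 difference was 2.28 for mTAMs, or 1.58 with background values raised to 5.3, and 2.06 for pTAMs. *Csrnp1*, a nuclear factor, had 11.24 in mTAMs, 9.71 in pTAMs and 6.31 in BMDM. *Nfil3*, a bZIP repressor, had 11.83 in mTAMs, 10.85 in pTAMs and 7.0 in BMDM. *Bhlhe40*, the gene of a repressor in the circadian clock, was 13.9-fold above BMDM in pTAMs, and *Pim1*, the gene of a survival kinase, was 20.1-fold above it in mTAMs. Between mTAMs and pTAMs, 8 of these genes were higher in mTAMs (34.8%, against 5.36% of all genes). Among them were *Csrnp1* at 2.89-fold and *Id1*, an inhibitor of bHLH factors, at 3.2-fold. *Crem*, whose transcripts include repressors of cyclic AMP-driven genes, was 2.33-fold lower in mTAMs than in pTAMs.

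Other feedback regulators, namely further dual-specificity phosphatases, Sprouty and SPRED proteins and RGS proteins, did not share the direction of the list. Of 12 compared, 3 were higher and 4 lower in mTAMs than in BMDM, against 11.5% and 14.4% of all genes. In pTAMs 3 were higher and 1 lower than in BMDM, against 8.78% and 7.5% of all genes. *Dusp16*, a phosphatase of JNK and p38, was 4.92-fold above BMDM in mTAMs and 2.97-fold above it in pTAMs. *Dusp7*, a cytoplasmic phosphatase of ERK like *Dusp6*, was 3.56-fold below BMDM in mTAMs and 2.19-fold below it in pTAMs. *Spred1* and *Spred2* code for inhibitors of the step from RAS to ERK. They were lower in mTAMs than in pTAMs, *Spred1* by 2.27-fold and *Spred2* by 2.35-fold. These were the only lower genes of the 12, against 2.58% of all genes, and none was higher, against 5.36%. Besides *Dusp4*, the feedback genes below BMDM thus included *Dusp7* at both sites and *Spred1* in mTAMs.

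Most of the kinases that carry the signal did not differ by 2-fold. Of 20 MAPK cascade genes compared, 3 were higher in mTAMs (15.0%, against 11.5% of all genes) and 4 in pTAMs (20.0%, against 8.78% of all genes) than in BMDM and none was lower, with median log2 differences of 0.0 for mTAMs and -0.18 for pTAMs. *Map3k8*, the kinase that links Toll-like receptors to ERK, had 9.87 in mTAMs, 8.43 in pTAMs and 6.88 in BMDM, or 7.94-fold above BMDM in mTAMs and 2.93-fold above it in pTAMs. *Mapk13*, the gene of a p38 isoform, had 9.5 in mTAMs, 7.23 in pTAMs and 4.87, a background value, in BMDM, so it was at least 18.4-fold above BMDM in mTAMs and at least 3.81-fold above it in pTAMs. *Map3k8* and *Mapk13*, with *Braf*, were the 3 of 19 that were higher in mTAMs than in pTAMs (15.8%, against 5.36% of all genes). The list of constitutive regulators and partners of these factors held 21 genes. Of these, 2 were higher (9.52%, against 11.5% of all genes) and 3 lower (against 14.4%) in mTAMs than in BMDM. In pTAMs 4 were higher (19.0%, against 8.78% of all genes) and 1 lower (against 7.5%) than in BMDM. Between the sites, 3 were lower in mTAMs than in pTAMs, against 2.58% of all genes. *Jdp2*, a dimer partner of JUN proteins, was 5.5-fold above BMDM in mTAMs and 4.26-fold above it in pTAMs.

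A list of 12 AU-rich transcripts that ZFP36 proteins are known to bind was also read. Of the 11 compared, 9 were higher and 1 lower in mTAMs than in BMDM, against 11.5% and 14.4% of all genes. In pTAMs 7 were higher than in BMDM, against 8.78% of all genes. *Il1b*, the gene of the inflammatory cytokine interleukin 1 beta, had 14.08 in mTAMs and 13.3 in pTAMs against a background value of 5.16 in BMDM. *Ptgs2*, the gene of the inducible cyclooxygenase, had 11.92 in mTAMs and 11.48 in pTAMs against 3.92 in BMDM. *Tnf* had 9.83 in mTAMs, 7.62 in pTAMs and 8.37 in BMDM, and was 4.63-fold higher in mTAMs than in pTAMs. *Ccl2*, the gene of a monocyte chemokine, was 5.24-fold lower in mTAMs than in BMDM and 2.64-fold lower in mTAMs than in pTAMs.

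Heat shock genes, which respond to protein stress, were read beside these results. Of 12 compared, 4 were higher in mTAMs than in BMDM with none lower, against 11.5% and 14.4% of all genes. In pTAMs 3 were higher and 1 lower than in BMDM, against 8.78% and 7.5% of all genes. The inducible HSP70 genes differed most: *Hspa1b* had 13.17 in mTAMs, 12.76 in pTAMs and 7.12 in BMDM, and *Hspa1a* had 12.59 in mTAMs, 12.14 in pTAMs and 5.23, a background value, in BMDM. The median over the list was near 0, at 0.22 for mTAMs and -0.06 for pTAMs against BMDM. None differed by 2-fold between mTAMs and pTAMs, where the median was 0.32 and 10 of 12 lay above 0 (83.3%, against 33.8% of all genes). The part of the preparation in the levels of the 39 genes was not tested.

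**Figure D5:**
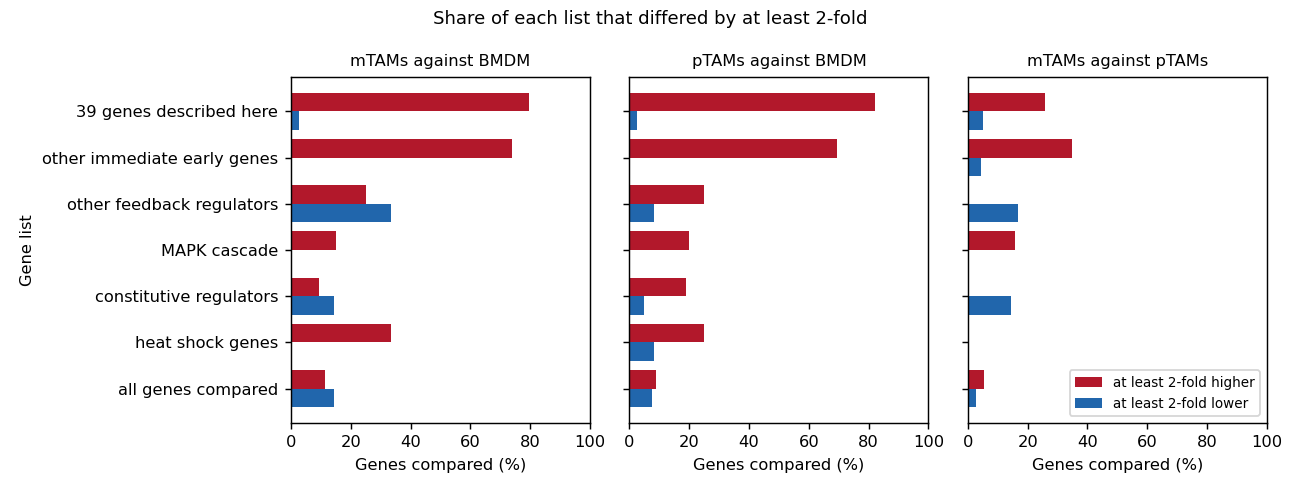
Share of the genes compared, in percent, that were at least 2-fold higher (red) or lower (blue) in mTAMs against BMDM, in pTAMs against BMDM and in mTAMs against pTAMs, for the 39 genes, for the lists of related genes and for all genes. For the 39 genes the red bars reach 79.5% for mTAMs against BMDM, 82.1% for pTAMs against BMDM and 25.6% for mTAMs against pTAMs.

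Markers of cell types were read beside these results. For comparison with the marker counts, 11.5% of all genes were higher in mTAMs than in BMDM and 8.78% in pTAMs than in BMDM. Between the sites, 5.36% of all genes were higher and 2.58% lower in mTAMs than in pTAMs. All 12 macrophage markers were above background on every array, with summed linear signals of 75800 in mTAMs, 76500 in pTAMs and 80900 in BMDM. Of the sorted antigens, *Itgam* (CD11b) was 2.22-fold above BMDM in mTAMs and 2.71-fold above it in pTAMs, and *Adgre1* (F4/80) was 3.66-fold below BMDM in mTAMs and 3.81-fold below it in pTAMs. Markers of neutrophils, which express many of the 39 genes as well, followed the order mTAMs above pTAMs above BMDM. All 10 were higher in TAMs of both sites than in BMDM, 8 were higher in mTAMs than in pTAMs, none was at background on all arrays, and their linear signals summed to 81000 in mTAMs, 34900 in pTAMs and 1700 in BMDM. *S100a9* had 14.3 in mTAMs, 13.75 in pTAMs and 7.73 in BMDM, and *Cxcr2* had 11.32 in mTAMs, 8.18 in pTAMs and 5.14 in BMDM. Neutrophil markers thus differed in the same direction as most of the 39 genes in each comparison, and their part in the result was not tested. In bulk RNA, fewer cells of a type and less RNA per cell cannot be told apart.

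Markers of tissue cells were present as well. Of the markers of epithelium or carcinoma compared, 7 of 10 were higher in mTAMs and 8 of 11 in pTAMs than in BMDM, and 3 of 11 were lower in mTAMs than in pTAMs, with summed linear signals of 2900 in mTAMs, 5000 in pTAMs and 590 in BMDM. *Krt14*, *Cldn7* and *Esrp1* were at background on all arrays. Of the fibroblast markers, 7 of 9 were higher in mTAMs and 6 of 9 in pTAMs than in BMDM and 4 of 9 were higher in mTAMs than in pTAMs, with sums of 5520 in mTAMs, 1390 in pTAMs and 485 in BMDM, while *Lum*, *Thy1* and *Postn* were at background on all arrays. Of the lung epithelium markers, 5 of 8 were higher in mTAMs than in BMDM and 2 of 8 were higher in mTAMs than in pTAMs, with sums of 6380 in mTAMs, 1440 in pTAMs and 533 in BMDM. *Scgb1a1*, the secretory protein of club cells, had 12.17 in mTAMs but background values of 4.21 in pTAMs and 4.12 in BMDM. *Hopx* had 9.99 in mTAMs, 10.12 in pTAMs and 7.83 in BMDM, and was the 1 of 5 that was higher in pTAMs than in BMDM. *Cldn18* and *Foxj1* were at background on all arrays. The lymphoid and endothelial lists moved both ways. Of the T cell markers, 5 of 9 were above background in mTAMs, 5 in pTAMs and 6 in BMDM. *Cd3d* and *Cd2* were higher in mTAMs than in BMDM and than in pTAMs, while *Cd28* was at least 5.58-fold lower in mTAMs and in pTAMs than in BMDM. Of the B cell markers, *Cd22* was 3.46-fold higher in mTAMs than in BMDM and 3.16-fold higher than in pTAMs. *Klrk1*, the 1 NK cell marker above background, was 2.58-fold above BMDM in mTAMs and 5.46-fold above it in pTAMs. Of the endothelial markers, 6 of 10 were above background in mTAMs, 6 in pTAMs and 5 in BMDM. *Pecam1* had 5.96 in mTAMs and 7.61 in pTAMs against 3.92, a background value, in BMDM. This put mTAMs at least 1.58-fold and pTAMs at least 4.96-fold above BMDM, and *Vwf* was 2.13-fold lower in mTAMs than in BMDM. Of these lists, *Cd3g*, *Cd5*, *Cd8b1*, *Cd79a*, *Cd79b*, *Ms4a1*, *Ncr1*, *Gzma*, *Prf1* and *Eomes* were at background on all arrays, as were the endothelial *Tek*, *Cldn5*, *Emcn* and *Tie1*. The part of these cells in the levels of the 39 genes was not tested.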

How the data were processed

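Total RNA of CD11b+F4/80+ TAMs and of BMDM was labeled with biotin and measured on Affymetrix mouse genome arrays, 1 array each for mTAMs, pTAMs and BMDM. The authors deposited a table of RMA log2 values (background-corrected, quantile-normalized, summarized per probe set) for 45037 probe sets, rounded to 2 decimals. The sources used here name no version of RMA. RMA fits the arrays together and equalizes their distributions, which hides any change common to all genes. Array medians were 5.43 in mTAMs, 5.43 in pTAMs and 5.36 in BMDM. Precision is limited by the number of arrays. Identical values on all 3 arrays were found for 21.4% of the probe sets.

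The platform annotation gave the gene names. Of the probe sets, 34945 had a single symbol and were used, 932 had several and 9160 none. For each gene the brightest probe set on average was used. The floor was 5.3, at or below which lay 91.7% of the values of 84 sensory receptor probe sets. Genes above it on at least 1 of the 2 arrays compared were counted (11945 for mTAMs against BMDM, 11859 for pTAMs against BMDM, 11801 for mTAMs against pTAMs), and a call was a log2 difference of at least 1 in size. Folds with a value at or below the floor were computed against the floor.

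All 39 genes are named. Of each other list, up to 3 genes per direction and comparison are named, those with the largest differences. The members and the lists were chosen with earlier results of these data known. Of the MAPK cascade list 20 of 28 genes were used here, of the constitutive regulators 21 of 23 and of the heat shock list 12 of 13. The array table names no genome build, and promoter sequences and coordinates are those of RefSeq. Alternatives were the mean of all probe sets, leaving out probe sets whose names mark them as shared, median-centering, repeated quantile normalization, cyclic loess normalization, no floor, a floor of 6.3, values raised to the floor, and a 3-fold threshold. Counting was tested on simulated data. Software was limma 3.58.1 under R 4.3.3 for the normalizations, and pandas 2.3.3, numpy 2.4.6 and matplotlib 3.10.9 under Python 3.11.15.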

Additional observations from a re-analysis of the deposited data

Results flagged for a closer look

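For 3 genes the mTAM and pTAM values lay on opposite sides of BMDM. None of these genes differed from BMDM by 2-fold, and whether the 2 differences are unlike each other was not tested. *Dusp6* had log2 differences from BMDM of -0.21 in mTAMs and 0.83 in pTAMs, and mTAMs minus pTAMs was -1.04. *Myc* had -0.56 in mTAMs and 0.19 in pTAMs, and mTAMs minus pTAMs was -0.75. *Klf6* had 0.38 in mTAMs and -0.12 in pTAMs, and mTAMs minus pTAMs was 0.5. Of the 4 further probe sets of *Klf6*, 3 had pTAMs above BMDM, by 0.09 to 0.61. *Dusp6* and *Myc* were each read from a single probe set.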

How the results depend on the processing

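The 39 genes were recounted under 9 alternatives. The counts of genes higher in mTAMs than in BMDM stayed between 28 and 33, and those higher in pTAMs than in BMDM between 25 and 32, with 35 genes compared where shared probe sets were left out. Of all genes, between 7.22% and 12.9% were higher in mTAMs than in BMDM under these alternatives. For pTAMs against BMDM it was between 5.37% and 9.96% of all genes. With a 3-fold threshold, 4 genes were higher and 0 lower in mTAMs than in pTAMs (2.49% and 0.491% of all genes). At that threshold 0 were lower in pTAMs than in BMDM (3.19% of all genes). Cyclic loess normalization left 1 gene lower in mTAMs than in pTAMs and raised the higher ones to 15, where 6.04% of all genes were higher and 2.0% lower, adding *Fosl2*, *Klf2*, *Dusp1*, *Zfp36* and *Btg2*, and added *Fosl1* and *Klf4* to those higher in mTAMs than in BMDM. It moved the median of all genes for mTAMs against BMDM to 0.0, against -0.11 as reported, and the share of calls that were higher in mTAMs to 55.2%, against 44.4% as reported. Of the differences of single genes, 19 of 117 moved by more than the spread between probe sets with the mean of all probe sets, 5 of 105 with shared probe sets left out and 4 of 117 with values raised to the floor. The 3 other normalizations moved 0 of 117 that far, and none of these 6 alternatives reversed a call; the cause was not tested. The other floors and the 3-fold threshold leave these differences as they are. *Btg1* became higher in mTAMs than in pTAMs with shared probe sets left out, at 1.19 against 0.33. With 1 array per group, no array could be left out and no paired analysis was possible. Low signals limit the folds of *Fosb*, *Egr3* and *Nr4a3* to lower bounds.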
